A study of Mus musculus with 6 samples.

Results

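Interferon response genes were examined in 6 RNA-seq libraries of cultured mouse spermatogonia. They were taken as a list of 33 symbols that covers interferon-stimulated genes, the IRF and STAT transcription factors and the cytosolic RNA sensors, and 31 of the symbols had a row among the 32285 gene rows of the deposited count table. Mx1 and Mx2 were not analysed here. These GS cells are a long-lived culture of germline stem cells from testis, and in all 6 libraries loxP sites flanked Cdkn1c, which encodes the cell cycle inhibitor p57, on both chromosomes. The 3 p57 KO libraries have the genotype p57 flox/flox-Cre, where Cre recombinase was brought in by an adenovirus, and the 3 control libraries have the genotype p57 flox/flox without Cre. RNA was taken 2 days after infection. The labels give the model as BDF1 and the design text names C57BL/6 and 129, and the age of the mice is 3 days in one text and 10 days in the other. The sources used here do not say if a virus lacking Cre was given to control cells, which part of Cdkn1c is removed, or in what share of the cells. Loss of Cdkn1c, Cre and infection therefore cannot be told apart in anything below. The labels do not say whether the libraries of a group were separate cultures, so p-values measure the spread between these libraries.

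The interferon response begins when sensors such as RIG-I (Ddx58) and MDA5 (Ifih1) bind foreign or misplaced RNA in the cytosol and signal through IRF3, IRF7 and NF-kB to the genes of type I interferons and chemokines. Secreted interferon then acts through its receptor and the JAK kinases on ISGF3, a complex with STAT2 and IRF9 that binds the interferon-stimulated response element (ISRE) in the promoters of antiviral genes. The sensors and the factors of the complex are themselves interferon-induced, which makes the response amplify itself. Pluripotent stem cells are known for a weak interferon response with a basal level of some of its genes.

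The ISRE was looked for in RefSeq promoter sequences of build GRCm38.p6 that run from 250 bases before to 50 bases after a gene's start. A match was GAAA and a second GAAA with any 2 bases between them, on either strand. The table held 23 of the 33 members, and 12 of them (52.2%) had a match, against 3.99% of the 27025 symbols in the table. The 250 bases upstream of 5 strong risers and of 2 members that were not called are shown, with every ISRE match in capitals. All members shown have a match. Xaf1, which also rose at least 2-fold, has a window without a match and is not shown.
Isg15, chr4:156200819-156201068, minus strand: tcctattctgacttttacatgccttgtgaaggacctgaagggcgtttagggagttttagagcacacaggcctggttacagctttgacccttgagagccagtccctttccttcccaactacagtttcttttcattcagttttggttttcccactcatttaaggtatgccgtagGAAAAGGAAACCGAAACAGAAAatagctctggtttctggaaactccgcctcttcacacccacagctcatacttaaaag
Ifit3, chr19:34583279-34583528, plus strand: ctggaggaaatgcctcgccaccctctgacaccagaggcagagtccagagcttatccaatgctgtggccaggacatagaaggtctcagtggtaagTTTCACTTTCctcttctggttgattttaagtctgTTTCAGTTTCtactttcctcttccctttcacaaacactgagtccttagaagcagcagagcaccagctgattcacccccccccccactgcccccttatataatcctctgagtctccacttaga
Ifit1, chr19:34640639-34640888, plus strand: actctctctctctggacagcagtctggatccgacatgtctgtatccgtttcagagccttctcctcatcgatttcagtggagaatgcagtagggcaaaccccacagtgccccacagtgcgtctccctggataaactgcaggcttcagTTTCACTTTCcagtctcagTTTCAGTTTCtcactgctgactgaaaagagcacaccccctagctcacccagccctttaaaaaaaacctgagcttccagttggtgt
Rsad2, chr12:26456453-26456702, minus strand: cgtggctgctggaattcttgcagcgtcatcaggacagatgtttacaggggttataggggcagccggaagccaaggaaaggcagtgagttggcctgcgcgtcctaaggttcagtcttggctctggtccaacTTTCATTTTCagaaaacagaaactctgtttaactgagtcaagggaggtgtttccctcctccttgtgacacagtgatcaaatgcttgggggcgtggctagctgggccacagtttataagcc
Cxcl10, chr5:92348890-92349139, minus strand: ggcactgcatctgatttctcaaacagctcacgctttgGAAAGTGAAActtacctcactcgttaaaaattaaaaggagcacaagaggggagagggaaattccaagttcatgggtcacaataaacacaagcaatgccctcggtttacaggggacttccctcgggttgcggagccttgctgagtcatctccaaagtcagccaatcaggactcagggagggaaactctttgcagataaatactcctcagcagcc
Stat2, chr10:128270248-128270497, plus strand: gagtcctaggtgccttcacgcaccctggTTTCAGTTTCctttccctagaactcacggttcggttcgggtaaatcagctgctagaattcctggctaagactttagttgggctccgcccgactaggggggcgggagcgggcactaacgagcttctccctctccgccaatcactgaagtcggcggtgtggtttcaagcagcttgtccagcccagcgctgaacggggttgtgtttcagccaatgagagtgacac
Gbp2, chr3:142620413-142620662, plus strand: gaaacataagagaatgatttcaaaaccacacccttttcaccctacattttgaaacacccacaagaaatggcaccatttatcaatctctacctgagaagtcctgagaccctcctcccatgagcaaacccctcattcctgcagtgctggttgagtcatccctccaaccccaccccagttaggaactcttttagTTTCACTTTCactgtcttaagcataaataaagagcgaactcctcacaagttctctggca
In Isg15, 3 matches overlap and begin 78, 72 and 66 bases before the start site. Ifit3 and Ifit1 each have a pair of separate matches on the reverse strand, and Rsad2, Cxcl10, Stat2 and Gbp2 have 1 match each. Cxcl10 also holds a kappaB match (GGGA and TTCC with any 2 bases between them, on either strand, found in 1.63% of symbols) that begins 159 bases before the start. That share is for windows that include the 50 bases after the start. Gbp2 and Ifit2, which were not called, have a kappaB match too, and that of Gbp2 lies after the start, outside the bases shown. A match of letters is a description of the window and shows no binding.

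Most interferon response genes that could be tested were higher in p57 KO, led by the chemokine gene Cxcl10 and by the antiviral genes Ifit3, Ifit1, Rtp4, Rsad2, Xaf1 and Isg15, while of 4 tested transcription factors only Irf9 rose. Of the 31 members, 29 had enough counts for the test, and 18 of these rose and 0 fell at an adjusted p under 0.05. Across all 14814 tested genes 11.6% rose and 11.6% fell. The median log2 fold change of p57 KO over control was 0.56 for the tested members and -0.0019 for all tested genes. Among the 29 tested members, 20 had all 3 p57 KO libraries above all 3 control libraries, as had 19.5% of all tested genes, and 0 had them all below, as had 19.7% of all tested genes. Ifit3 passed the filter on low counts only through its p57 KO libraries, and Ifi44 through these and 1 control library. Of the 27 members that passed it in all libraries of both groups 17 rose. Without the filter, 20 of the 31 rose, against 9.02% of 23200 genes, and the median was again 0.56. A test against a fold of 1.2 left 11 members higher, against 2.79% of all tested genes. With a score of fibroblast markers as a further term, 4 of the 29 rose, against 1.61% of all tested genes, and the markers are described after the members.

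**Figure D1:**
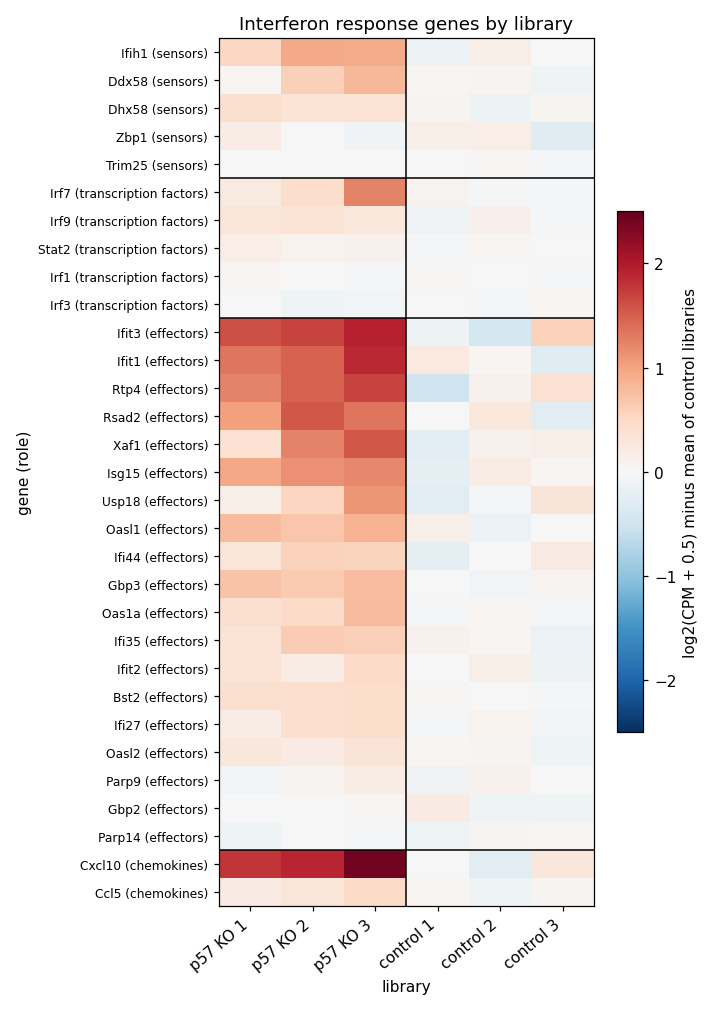
Heat map of the 31 members in the 6 libraries, as log2(CPM + 0.5) minus the mean of the control libraries, with members grouped by role. Cxcl10, Ifit3, Ifit1 and Rtp4 are darkest in the p57 KO columns, while Trim25, Irf1, Irf3, Parp14 and Gbp2 show little colour in any library.

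Depth did not separate the groups: the p57 KO libraries held 15940375 to 17893671 counts and the control libraries 15662833 to 16979459. Every p57 KO library had less RNA of the targeted gene Cdkn1c than every control library, with 8.89 ± 0.486 CPM in p57 KO and 20.7 ± 0.782 CPM in control (SD, n = 3 each; log2 fold change -1.22, edgeR adjusted p = 4.07e-09). CPM is the normalised read count, taken over the TMM-adjusted size of each library. Germ cell markers marked all libraries, with a summed level of 3575 to 3782 CPM in p57 KO and 4240 to 4320 CPM in control. Of the 13 markers summed, all tested, 11 fell, where 11.6% of all tested genes fell.

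Among the RNA sensors, the 3 members of the RIG-I-like family rose, by less than 2-fold, and the other 2 sensors were not called. Ifih1, the gene of MDA5, which binds long double-stranded RNA, had 4.42, 6.09 and 5.99 CPM in p57 KO, against 2.61, 3.30 and 2.88 CPM in control. The groups did not overlap (log2 fold change 0.91, SE 0.18, edgeR adjusted p = 0.000654). Dhx58, the gene of LGP2, a helicase that modulates its relatives RIG-I and MDA5, had 9.66, 9.25 and 9.24 CPM in p57 KO, against 7.46, 6.53 and 7.48 CPM in control. All p57 KO libraries lay above the control libraries (log2 fold change 0.39, SE 0.12, edgeR adjusted p = 0.0179), and the call was lost without control replicate 2 (adjusted p = 0.0868) and in DESeq2 (0.112). Ddx58, the gene of RIG-I itself, had 7.57, 11.3 and 13.4 CPM in p57 KO, against 7.52, 7.65 and 6.78 CPM in control. Here p57 KO replicate 1 lay within the control range and replicates 2 and 3 above it (log2 fold change 0.56, SE 0.18, edgeR adjusted p = 0.0455). The call of Ddx58 was lost in limma-voom (adjusted p = 0.116) and in 5 of 6 fits that left out 1 library, with adjusted p-values of 0.149 and 0.0866 without p57 KO replicates 2 and 3 and of 0.144, 0.116 and 0.179 without control replicates 1, 2 and 3. Without p57 KO replicate 3 its log2 fold change was 0.37.

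Zbp1, a sensor of left-handed nucleic acids that can start cell death, had 4.86, 4.26 and 3.98 CPM in p57 KO, against 4.73, 4.83 and 3.32 CPM in control, so that the groups overlapped (log2 fold change 0.02, edgeR adjusted p = 0.958). Trim25, a ubiquitin ligase that acts on the RIG-I pathway, was the most abundant member by counts, with 140.2, 138 and 140.4 CPM in p57 KO, against 140.3, 144 and 136 CPM in control. The groups overlapped (log2 fold change -0.0036, SE 0.03, edgeR adjusted p = 0.954), and the sign changed between fits.

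Of the 4 tested transcription factors 1 rose and 0 fell. Irf9, the DNA-binding part of ISGF3, had 28.5, 29.3 and 27.9 CPM in p57 KO, against 21.6, 25.1 and 22.6 CPM in control. The groups did not overlap and Irf9 rose (log2 fold change 0.31, SE 0.07, edgeR adjusted p = 0.00259). Exons of Irf9 overlap those of Rnf31 on the same strand in the annotation, and Rnf31 was not called (log2 fold change -0.07). Stat2, its partner in the complex, had 42.0, 39.6 and 40.4 CPM in p57 KO, against 36.2, 38.5 and 37.7 CPM in control. All p57 KO libraries were higher, but the difference did not pass (log2 fold change 0.12, SE 0.05, edgeR adjusted p = 0.12). Irf3, the factor that the sensors switch on by phosphorylation rather than by new RNA, had 60.3, 55.2 and 56.9 CPM in p57 KO, against 59.8, 57.4 and 61.9 CPM in control (log2 fold change -0.05, edgeR adjusted p = 0.446). Irf1, which responds to interferon gamma and NF-kB, had 117, 114 and 112 CPM in p57 KO, against 116, 115 and 109.7 CPM in control (log2 fold change 0.0064, edgeR adjusted p = 0.924). In both the groups overlapped.

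Irf7, the factor that amplifies the type I response once interferon is made, was close to the limit of detection. It had 4, 6 and 18 counts in p57 KO, against 3, 2 and 2 counts in control, and was too low for the filtered test. Most of these counts were in p57 KO replicate 3. Without the filter its log2 fold change was 1.90 (edgeR adjusted p = 0.0185). Exons of Irf7 overlap those of Phrf1 on the other strand, which fell (log2 fold change -0.24, edgeR adjusted p = 2.97e-06). How the counting treated strand is not stated in the sources used here.

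The antiviral effector genes held most of the risers: of 19 with a row, all 19 were tested, 13 rose and 0 fell, and their median log2 fold change was 0.77. The IFIT genes encode proteins that bind viral RNA and block its translation, and lie together on chromosome 19. Ifit3 (chr19:34583531-34588731, plus strand, build mm10 as for all genes) had 25, 28 and 38 counts in p57 KO, against 2, 0 and 8 counts in control, or 1.58, 1.70 and 2.13 CPM against 0.121, 0 and 0.511 CPM. Every p57 KO library was above every control library, and the log2 fold change of 3.10, with an SE of 0.52 and an edgeR adjusted p of 0.00042, was the largest among the members. It rests on few control counts, with 0 control libraries over the cutoff of the filter. The log2 fold change was 4.75 without control replicate 3, 3.77 in limma-voom and 2.51 without control replicate 2, with a call in each. Ifit3b, a near copy in the same cluster whose reads can be confused with those of Ifit3, also rose, at 1.05 ± 0.312 CPM in p57 KO and 0.261 ± 0.118 CPM in control (SD, n = 3 each; log2 fold change 1.97, edgeR adjusted p = 0.00292). It had 11, 19 and 23 counts in p57 KO, against 5, 6 and 2 counts in control. Ifit3b thus passed the filter only through its p57 KO libraries, and is no separate support for the rise of Ifit3.

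Ifit1 (chr19:34640871-34650009, plus strand) had 3.41, 3.84 and 5.21 CPM in p57 KO, against 1.33, 1.12 and 0.767 CPM in control. The groups were well apart (log2 fold change 1.94, SE 0.24, edgeR adjusted p = 5.98e-06). Ifit2, next to them, had 1.70, 1.46 and 1.90 CPM in p57 KO, against 1.21, 1.41 and 1.09 CPM in control. Its groups did not overlap, but it was not called (log2 fold change 0.45, SE 0.26, edgeR adjusted p = 0.237). Neither of its promoter windows held the ISRE letters.

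Rsad2 (chr12:26442746-26456452, minus strand), the gene of viperin, an enzyme that makes a chain-terminating nucleotide, had 3.34, 5.05 and 4.31 CPM in p57 KO, against 1.40, 1.77 and 1.09 CPM in control. The groups did not overlap (log2 fold change 1.57, SE 0.23, edgeR adjusted p = 3.39e-05). Rtp4 (chr16:23520291-23614222, plus strand), which encodes a receptor transport protein that is strongly induced by type I interferon, had 5.36, 6.45 and 7.56 CPM in p57 KO, against 1.27, 2.18 and 2.75 CPM in control. The lowest p57 KO library was well above the highest control library (log2 fold change 1.65, SE 0.22, edgeR adjusted p = 3.76e-05). Xaf1 (chr11:72301629-72313733, plus strand), which encodes a binding partner of the caspase inhibitor XIAP, had 1.89, 3.84 and 4.87 CPM in p57 KO, against 1.03, 1.47 and 1.53 CPM in control. Here p57 KO replicate 1 stood just above the controls and the other two further up (log2 fold change 1.40, SE 0.32, edgeR adjusted p = 0.00715).

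Isg15 (chr4:156199424-156200818, minus strand), a small ubiquitin-like protein that is joined to other proteins during the response, had 5.55, 6.33 and 6.55 CPM in p57 KO, against 2.12, 3.00 and 2.68 CPM in control. The p57 KO libraries were close together and all above control (log2 fold change 1.24, SE 0.17, edgeR adjusted p = 1.92e-05). Usp18, the protease that removes ISG15 and damps signalling at the interferon receptor, had 1.14, 1.64 and 2.69 CPM in p57 KO, against 0.728, 0.942 and 1.34 CPM in control. It overlapped in p57 KO replicate 1 and missed the threshold (log2 fold change 0.88, SE 0.33, edgeR adjusted p = 0.0609), but passed without the filter (adjusted p = 0.0216) and without p57 KO replicate 1 (0.00906). Its fold changed with single libraries, with a log2 fold change of 0.48 without p57 KO replicate 3.

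The oligoadenylate synthetases make a messenger that activates RNase L. Oas1a had 4.8, 5.11 and 6.44 CPM in p57 KO, against 3.46, 3.65 and 3.45 CPM in control, and the groups did not overlap (log2 fold change 0.63, SE 0.16, edgeR adjusted p = 0.00691). The call was lost in DESeq2 (adjusted p = 0.0507) and when p57 KO replicate 3 was left out (0.058). Oas1g, a close copy, had 2.25 ± 0.689 CPM in p57 KO and 1.28 ± 0.378 CPM in control (SD, n = 3 each; log2 fold change 0.81, edgeR adjusted p = 0.0415), and reads of the pair may be split between them. Oasl1, which in mouse restrains the translation of Irf7, had 6.69, 6.21 and 7.11 CPM in p57 KO, against 4.13, 3.30 and 3.64 CPM in control. All 3 p57 KO libraries were higher (log2 fold change 0.86, SE 0.15, edgeR adjusted p = 0.000271). Oasl2 had 18.5, 17.5 and 19.0 CPM in p57 KO, against 15.7, 15.7 and 13.9 CPM in control, a smaller difference without overlap (log2 fold change 0.28, SE 0.08, edgeR adjusted p = 0.0181). It lost the call without p57 KO replicate 3 (adjusted p = 0.0652), without control replicate 3 (0.106) and in DESeq2 (0.111).

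Bst2 (chr8:71534255-71537456, minus strand), the gene of tetherin, which holds budding virus particles at the cell surface, had 58.7, 59.9 and 60.9 CPM in p57 KO, against 45.3, 44.6 and 44.0 CPM in control. The libraries of each group were nearly equal, so that a log2 fold change of 0.42 had an SE of 0.05 (edgeR adjusted p = 1.12e-06). Ifi27, which encodes a small membrane protein of the response, had 46.3, 54.2 and 55.2 CPM in p57 KO, against 39.9, 43.4 and 38.4 CPM in control, with no overlap (log2 fold change 0.36, SE 0.07, edgeR adjusted p = 0.00109). Ifi35, whose protein binds its relative NMI, had 10.03, 12.4 and 12.1 CPM in p57 KO, against 8.43, 8.06 and 6.97 CPM in control, again with every p57 KO library higher (log2 fold change 0.56, SE 0.12, edgeR adjusted p = 0.00147).

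The guanylate-binding proteins, GTPases that attack vacuoles of pathogens, differed between neighbours on chromosome 3. Gbp3 had 7.95, 7.55 and 8.23 CPM in p57 KO, against 4.67, 4.35 and 4.86 CPM in control, and rose without overlap (log2 fold change 0.77, SE 0.13, edgeR adjusted p = 0.000238). Gbp2 had 12.4, 12.4 and 12.6 CPM in p57 KO, against 14.3, 11.5 and 11.5 CPM in control (log2 fold change 0.0059, SE 0.10, edgeR adjusted p = 0.977). Control replicate 1 was above all p57 KO libraries of Gbp2 and the other controls below them. The difference between the 2 fold changes was not tested. Both promoter windows hold the ISRE letters.

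The other effectors were not called. Ifi44 had few counts, 12, 17 and 18 in p57 KO, against 6, 9 and 11 in control, without overlap (log2 fold change 0.81, SE 0.38, edgeR adjusted p = 0.126). Parp9 and Parp14, ADP-ribosyltransferases of the response, had 21 ± 1.92 and 24.4 ± 1.08 CPM in p57 KO, and 20 ± 1.44 and 25.2 ± 1.54 CPM in control (SD, n = 3 each). Their log2 fold changes were 0.07 and -0.05, with edgeR adjusted p-values of 0.582 and 0.647, and the groups overlapped. Parp9 shares exon sequence on the other strand with Dtx3l, its partner in a ubiquitin ligase complex, which was not called either (log2 fold change -0.11).

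Of the chemokines, which draw T cells to infected tissue, Cxcl10 (chr5:92346638-92348889, minus strand) had the second largest rise of the members. It had 69, 78 and 125 counts in p57 KO, against 15, 11 and 19 counts in control, or 4.35, 4.75 and 7.0 CPM against 0.91, 0.647 and 1.21 CPM. The lowest p57 KO library was above the highest control library by a wide gap (log2 fold change 2.54, SE 0.25, edgeR adjusted p = 4.04e-07). Cxcl10 shares exon sequence on the other strand with Art3, which went the other way, at 5.32 ± 0.372 CPM in p57 KO and 6.83 ± 0.501 CPM in control (SD, n = 3 each; log2 fold change -0.36, edgeR adjusted p = 0.0613). Ccl5 had 3, 4 and 6 counts in p57 KO, against 2, 1 and 2 counts in control, too few for the filtered test. Without the filter its log2 fold change was 1.28 (edgeR adjusted p = 0.351).

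**Figure D2:**
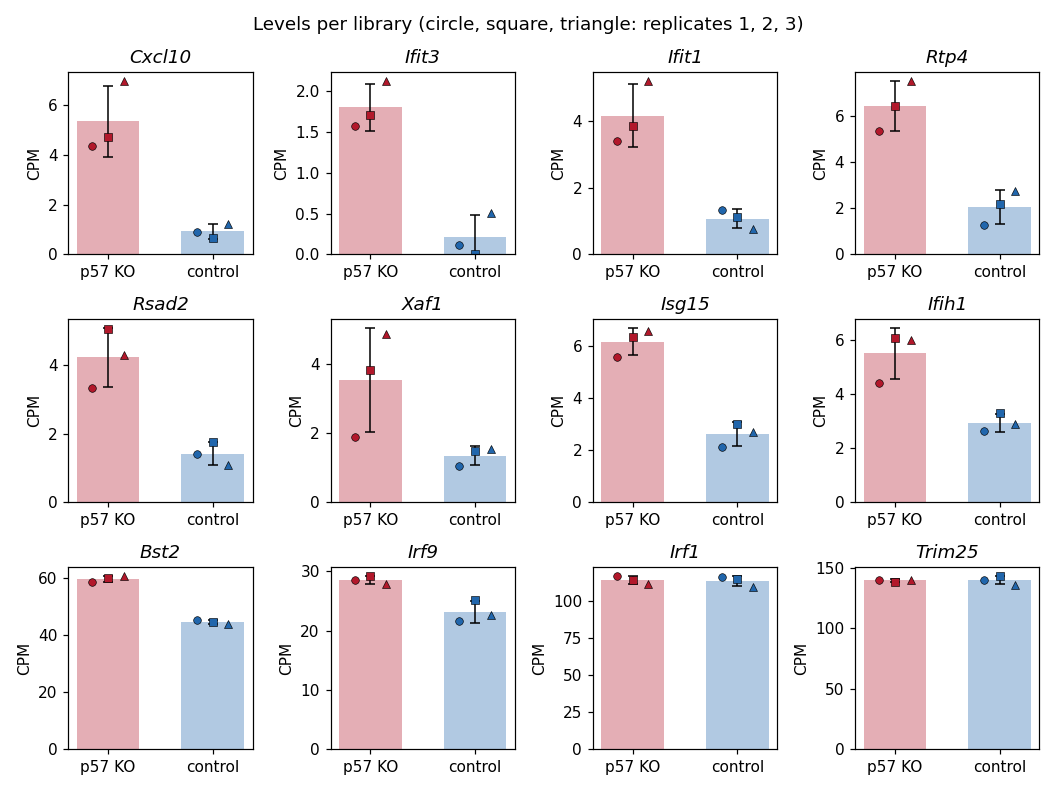
Normalised levels (CPM) of 12 members in each library, with p57 KO left of control, bars at the mean, error bars of 1 SD and one marker per replicate. The risers from Cxcl10 to Irf9 have all p57 KO markers above the control markers, while those of Irf1 and Trim25 overlap.

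Across the members the size of the rise went with a low level. The 7 members that rose at least 2-fold (Cxcl10, Ifit3, Ifit1, Rtp4, Rsad2, Xaf1 and Isg15) had between 0.211 (Ifit3) and 2.60 CPM (Isg15) in control. Of all 14814 tested genes 397 rose at least 2-fold. The control level is the denominator of the fold, so that level and fold are not independent. Among members with a mean under 10 CPM over all libraries 14 of 18 rose, and their median log2 fold change was 0.87, where 14.2% of all tested genes under that level rose. Among members at or over 10 CPM 4 of 11 rose (Irf9, Oasl2, Bst2 and Ifi27), with a median of 0.07, where 10.3% of all tested genes did. The summed level of the 31 members was 652 to 683 CPM in p57 KO and 575 to 598 CPM in control, and Trim25 and Irf1 contribute more to it than any other member.

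Per kilobase of exon sequence Bst2 was first in both groups, with 66.3 ± 1.22 CPM per kb in p57 KO and 49.5 ± 0.709 CPM per kb in control (SD, n = 3 each). Ifi27 followed with 35.4 ± 3.34 CPM per kb in p57 KO and 27.7 ± 1.73 CPM per kb in control. Irf1, with 28.7 ± 0.709 CPM per kb in p57 KO and 28.6 ± 0.85 CPM per kb in control, was second in control, and its distance there from Ifi27 was within their spread. Trim25 had 24.3 CPM per kb in both groups and Irf3 16.7 ± 0.76 CPM per kb in p57 KO and 17.3 ± 0.654 CPM per kb in control. Isg15 stood at place 6 of the 31 in p57 KO, with 8.13 ± 0.694 CPM per kb, and at place 11 in control, with 3.44 ± 0.588 CPM per kb. Rtp4 stood at place 12 in p57 KO, with 3.03 ± 0.516 CPM per kb, and at place 20 in control, with 0.97 ± 0.349 CPM per kb. Irf7 was last in both groups, with 0.144 ± 0.108 CPM per kb in p57 KO and 0.0377 ± 0.00915 CPM per kb in control.

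Members with and without the ISRE letters both included risers. Of the 12 tested members with a match 10 rose (median log2 fold change 0.84), the exceptions being Stat2 and Gbp2, and of 10 tested members with a window but no match 5 rose (median 0.38). The same letters marked 393 of all tested genes, of which 75 rose and 49 fell. Of the 11029 tested genes with a window that lacks them, 1289 rose (11.7%). These windows are short, and elements farther from the start are outside them.

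**Figure D3:**
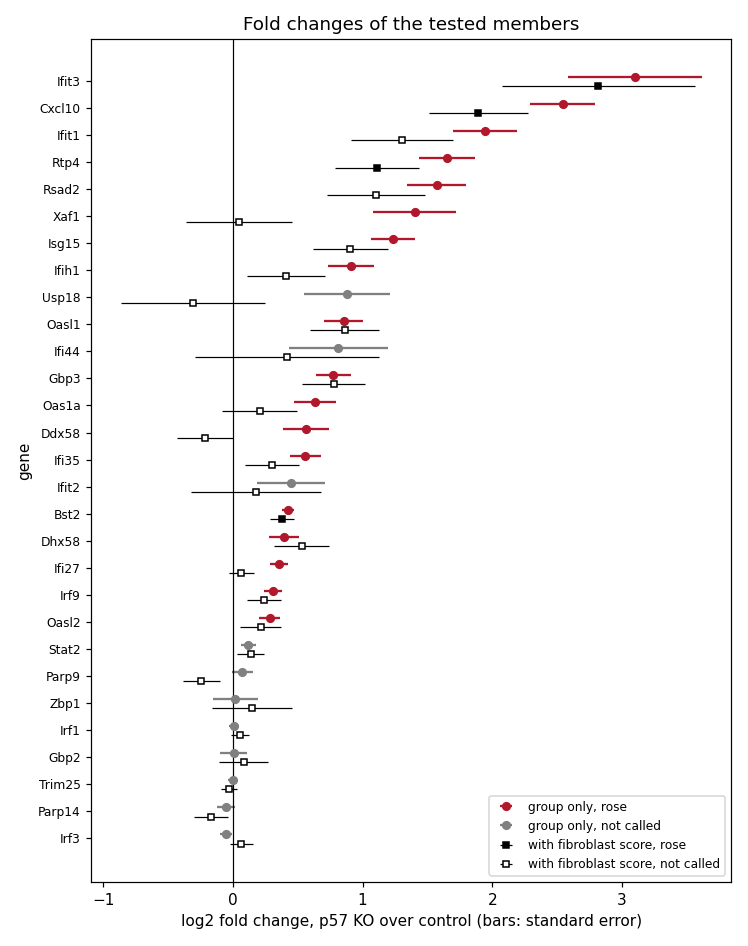
Log2 fold change of p57 KO over control for the 29 tested members, with bars for the SE, from the fit with the group alone (circles, red where the member rose) and from the fit that also holds the fibroblast score (squares, filled where it rose). Ifit3, Cxcl10, Rtp4 and Bst2 have filled squares, and the squares of Xaf1, Ddx58 and Usp18 lie near or below 0.

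Markers of fibroblasts and feeder cells, a cell type that germline stem cell cultures are often grown on, were also higher in p57 KO. Their summed level over 18 markers was 1387 to 2690 CPM in p57 KO and 896 to 1135 CPM in control, and each marker had counts. Of the 18, all tested, 5 rose (Tagln, Pdgfra, Acta2, Thy1 and Col5a1) and 0 fell, where 11.6% of all tested genes rose. The median log2 fold change over the 18 was 1.41. In bulk RNA, more cells of a type and more RNA per cell cannot be told apart. The fibroblast score, the mean log2 CPM of these markers, was 4.36, 4.94 and 5.43 in p57 KO replicates 1, 2 and 3, against 3.57, 4.08 and 3.62 in control. The median of the members, as log2(CPM + 0.5) minus the control mean, was 0.30, 0.43 and 0.56 in p57 KO replicates 1, 2 and 3, against 0.0034, 0.05 and -0.02 in control. Of the 18 risers, 13 were highest in p57 KO replicate 3 and 13 were lowest in p57 KO replicate 1. This order is not given here for all genes that rose, so it cannot be read as particular to the members.

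**Figure D4:**
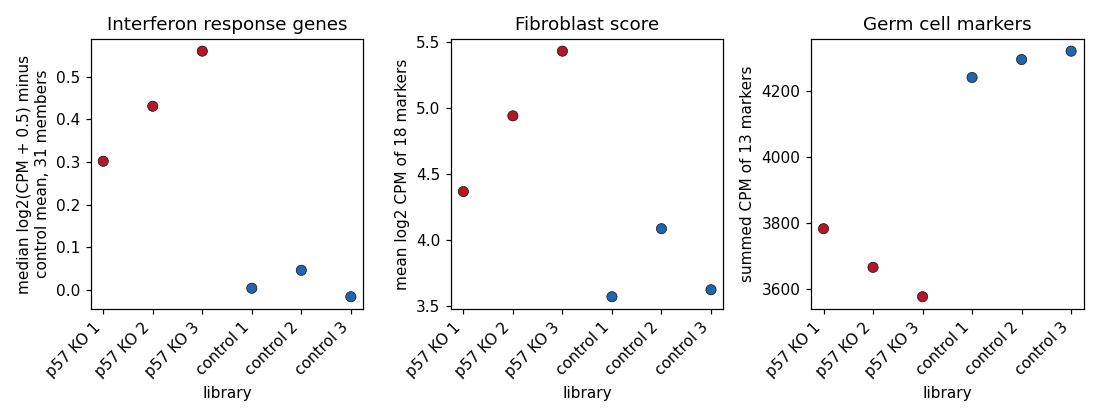
For each library, the median of the 31 members relative to the control mean (left), the fibroblast score (middle) and the summed level of 13 germ cell markers (right). The p57 KO libraries are above control in the first and second panel and below it in the third, and p57 KO replicate 3 is the most extreme in all of them.

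In the model with the fibroblast score beside the group, 0 members fell, against 1.05% of all tested genes. The 4 that rose were Cxcl10 (log2 fold change 1.89, edgeR adjusted p = 0.00203), Ifit3 (2.82, 0.0268), Bst2 (0.38, 0.0112) and Rtp4 (1.11, 0.0497), and the median of the tested members was 0.21. Oasl1, Gbp3 and Dhx58 lost the call with folds close to or above those without the score, at 0.86 (adjusted p = 0.0728), 0.78 (0.0742) and 0.53 (0.207). Ifit1 had 1.30 (adjusted p = 0.0637), Isg15 0.91 (0.086) and Rsad2 1.10 (0.117). Xaf1 had 0.04 (adjusted p = 0.983), Ifi27 0.07 (0.848) and Ddx58 -0.22 (0.741). The score does not overlap between the groups, so this fit rests on the spread of the score within groups of 3.

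The libraries of the groups that lie nearest in the score, p57 KO replicate 1 at 4.36 and control replicate 2 at 4.08, give a comparison without a test. It sets 1 library against 1, and the p57 KO library is still the higher in score. Cxcl10 had 4.35 CPM in that p57 KO library, against 0.647 CPM in that control library. Ifit3 had 1.58 CPM there, against 0 CPM, and Ifit1 3.41 CPM, against 1.12 CPM. Isg15 had 5.55 CPM, against 3.00 CPM, and Bst2 58.7 CPM, against 44.6 CPM. Xaf1 had 1.89 CPM in the p57 KO library and 1.47 CPM in the control library, and Ddx58 had 7.57 CPM and 7.65 CPM in the same order. In that order Ifi27 had 46.3 and 43.4 CPM, Irf9 28.5 and 25.1, and Oasl2 18.5 and 15.7. Ifi35 had 10.03 and 8.06 CPM, Oas1a 4.80 and 3.65, and Ifih1 4.42 and 3.30. The other risers were Dhx58 (9.66 and 6.53 CPM), Gbp3 (7.95 and 4.35), Oasl1 (6.69 and 3.30), Rtp4 (5.36 and 2.18) and Rsad2 (3.34 and 1.77).

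Some immune cell markers, such as Ptprc, Tyrobp and Nkg7, were at or near 0, while others were not, and most of the tested macrophage markers rose. These lists do not settle whether such cells were present. Over 10 macrophage markers the summed level was 24.4 to 28.9 CPM in p57 KO and 25.1 to 26.1 CPM in control. Most of it came from Cd68, at 16.4 ± 1.52 CPM in p57 KO and 12.4 ± 0.672 CPM in control (SD, n = 3 each), which rose, and from Mrc1, which fell. Of the 10 markers 4 were tested, and 3 rose and 1 fell, where 11.6% of all tested genes rose. The median log2 fold change of these 4 was 0.85. With the fibroblast score 0 of them rose and 1 fell. The pan-leukocyte gene Ptprc had 0.26 ± 0.0407 CPM in p57 KO and 0.222 ± 0.119 CPM in control (SD, n = 3 each), and Tyrobp was at 0 in all control libraries. Over 6 T and NK cell markers the summed level was 8.08 to 10.4 CPM in p57 KO and 9.08 to 9.89 CPM in control. Only 2 of the 6 were tested, of which 0 rose and 0 fell, and Nkg7 was at 0 in every library. The part of these markers in the members' rise was not tested.

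Interferon genes themselves were hardly detected. Of 21 ligand rows (type I, II and III interferons) 14 had 0 counts in all libraries, where 3 counts, the upper limit that a count of 0 allows, correspond to 0.168 to 0.192 CPM per library, for counting error only. The 21 together had 4, 3 and 8 counts in p57 KO, against 0, 1 and 2 counts in control. The counts were too few for a test of any ligand.

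Of 10 receptor and JAK-STAT genes reported here, all tested, 0 rose and 3 fell, where 11.6% of all tested genes rose and 11.6% fell. Their median log2 fold change was 0.03. Ifnar1, a chain of the type I receptor, fell to 165 ± 5.11 CPM in p57 KO, against 190.1 ± 1.2 CPM in control (SD, n = 3 each; log2 fold change -0.21, SE 0.03, edgeR adjusted p = 5.43e-05). Stat3 and Ifngr1 fell, with log2 fold changes of -0.08 and -0.18. With the fibroblast score 0 of the 10 were called.

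Among the adaptors, kinases and other sensors between RNA or DNA sensing and interferon genes, 4 of 21 tested rose and 1 fell (median log2 fold change 0.09). Across all tested genes 11.6% rose and 11.6% fell. Tbk1, the kinase that activates IRF3, rose by 0.22 on the log2 scale (SE 0.04, edgeR adjusted p = 0.00127), Traf3, an adaptor to it, 0.25 (adjusted p = 0.00211) and Ripk3, a kinase of cell death, 0.23 (0.0374). Irf8, a factor known from myeloid cells, fell with -0.24 (adjusted p = 0.0044). With the fibroblast score 0 of these were called.

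A wider list of 67 interferon-stimulated genes, of which 44 were tested, had 16 that rose and 1 that fell, with a median log2 fold change of 0.37. Across all tested genes 11.6% rose and 11.6% fell. Tap1, the peptide transporter of antigen presentation, rose to 16.8 ± 1.01 CPM in p57 KO, against 9.85 ± 0.362 CPM in control (SD, n = 3 each; log2 fold change 0.77, SE 0.09, edgeR adjusted p = 4.45e-06), and kept its call with the fibroblast score (0.89, adjusted p = 0.00106). Gbp7 and Ifit3b rose with log2 fold changes of 0.97 and 1.97, where Ifit3b passed the filter only through its p57 KO libraries. The same holds for Lgals9, another of the 16, with 12, 17 and 29 counts in p57 KO, against 9, 8 and 6 counts in control. How many of the 16 passed the filter in both groups is not given here. Ifitm1, a membrane protein that blocks virus entry and is also a marker of germ cells, fell with -0.56 (SE 0.09, edgeR adjusted p = 0.000165). With the score 1 of the 44 rose, against 1.61% of all tested genes, and the median was -0.02.

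Of 10 negative regulators, all tested, 2 rose, where 11.6% of all tested genes rose. They were Socs1, which blocks JAK kinases, by 0.26 on the log2 scale (edgeR adjusted p = 0.00798) and the phosphatase gene Ptpn6 with 0.40 (0.0116). Of 18 tested NF-kB target genes, 6 rose and 0 fell (median log2 fold change 0.39), where 11.6% of all tested genes rose. Tnfaip3, which encodes the feedback inhibitor A20, rose to 5.89 ± 0.457 CPM in p57 KO, against 2.40 ± 0.131 CPM in control (SD, n = 3 each; log2 fold change 1.29, SE 0.16, edgeR adjusted p = 7.9e-06), and kept the call with the fibroblast score (1.23, adjusted p = 0.0113). Nfkbia, Icam1 and Bcl3 had 0.43, 0.26 and 0.52 as log2 fold changes. With the score 1 of the 18 rose, against 1.61% of all tested genes, and the median was -0.0047.

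**Figure D5:**
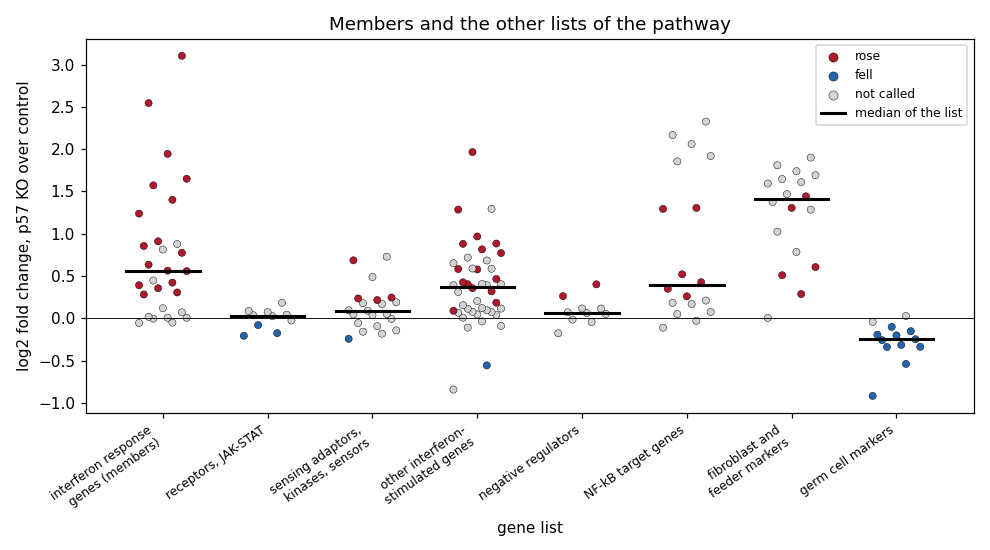
Log2 fold changes of p57 KO over control for the tested members and for the other lists, one point per gene, coloured by call, with the median of each list as a line. The medians are 0.56 for the members, 0.37 for other interferon-stimulated genes, 0.03 for receptors and JAK-STAT genes, 1.41 for fibroblast and feeder markers and -0.25 for germ cell markers.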

How the data were processed

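The authors deposited 1 table of whole-number counts by gene and library, which they had not normalized. Per the submitters' processing notes, bcl2fastq 2.20, cutadapt 3.4, HISAT2 2.2.1 and HTSeq 2.0.2 were used with build mm10. The sources used here do not state the annotation, the strand setting or how reads with several matches were treated. Per the labels' protocols the libraries were made with a stranded kit. Positions and exon lengths come from GENCODE M21 (same build), which held 32158 of the 32285 identifiers. Genes with low counts were removed by edgeR's filterByExpr, and the whole table was fitted with TMM scaling and group as the one term by the quasi-likelihood method of edgeR 4.0.16 in R 4.3.3, with limma 3.58.1 and DESeq2 1.42.0 for alternatives, and p-values were adjusted by Benjamini-Hochberg over all tested genes. "Rose" and "fell" mean an adjusted p under 0.05. The SE is the log2 fold change divided by the square root of F. The fibroblast score is the mean log2 CPM of 18 markers. Replicates differed by more than sampling noise (chi-square per degree of freedom of 2.87 to 5.97 in p57 KO pairs and 1.69 to 2.12 in control pairs). All members were named, with up to 4 genes of smallest p from each other list. Ligands, overlapping genes and close copies, Lgals9, and the pair of libraries nearest in score, were added after their values were seen. One gene of the receptor and JAK-STAT list is not reported here. The members and lists were chosen with earlier results of these data known.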

Additional observations from a re-analysis of the deposited data

How the results depend on the processing

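Of the 18 members that rose, 14 kept the call in edgeR with RLE scaling, in DESeq2 and limma-voom, with no filter and a stricter filter, with a replicate block and without each library. The share of all risers that kept the call in these fits is not given here, so 14 of 18 cannot be read as particular to the members. Leaving out 1 library, 15 to 19 members rose and 0 fell, and 1180 to 2136 of all genes rose and 1178 to 1893 fell. Against a fold of 1.2, 11 members rose, and 414 of all genes rose and 55 fell. With the fibroblast score 4 members rose, and 238 of all genes rose and 155 fell, against 1725 and 1725 with the group alone. In that fit the sign turned for Ddx58 (-0.22), Irf3 (0.063), Usp18 (-0.31) and Parp9 (-0.25). DESeq2 called 1102 lower genes. The cause of these changes was not tested. Members near 0 changed sign: Trim25 had 0.00078 with the stricter filter, and leaving out 1 library gave -0.025 to 0.013 for Trim25, -0.13 to 0.11 for Zbp1, -0.020 to 0.023 for Irf1 and -0.051 to 0.12 for Gbp2. The replicate block made 19 members rise, the added one being Usp18 (edgeR adjusted p = 0.03). In that fit calls also went up among all 14814 tested genes, of which 1934 rose and 1772 fell, against 1725 and 1725 with the group alone. What the number shared by a p57 KO and a control library stands for is not stated in the sources used here. The deviations of same-numbered libraries correlated with 0.22, 0.03 and -0.11. Among the controls, p57 KO replicates 1 and 2 correlated best with the one of the same number, and p57 KO replicate 3 with control replicate 2. So few correlations cannot settle whether the libraries are paired. Counts under 20 in at least 1 library limit Irf7, Ccl5, Ifi44, Ifit1, Ifit2, Ifit3, Usp18, Rsad2, Xaf1, Cxcl10 and the interferon genes.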
